A study of Arabidopsis thaliana with 14 samples.

Results

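LINE/L1 elements are the L1 class of long interspersed nuclear elements in the Arabidopsis thaliana genome. The 1366 members described here are all annotated transposable elements (TEs) of the count tables that carry the superfamily name LINE/L1, out of 31189 TEs, and no measured value was used to choose them. L1 elements are retrotransposons without long terminal repeats. A complete copy encodes an RNA-binding protein and a protein with endonuclease and reverse transcriptase activity, and it inserts new copies by reverse transcribing its own RNA at a nicked target site, which often leaves the new copy short at its 5′ end. In plants such copies are usually silenced by DNA methylation, which MET1 maintains at CG sites, with the chromatin remodeler DDM1, and by repressive histone marks.

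Messenger RNA of developing siliques, the seed pods of Arabidopsis, was sequenced from Col-0 plants grown under a 16 h photoperiod. Siliques were taken 6 to 9 days after anthesis and 3 siliques were pooled in each library. WT (n = 2) carried no mutation. The other 4 groups all carried jas-3, a T-DNA allele of JASON that gives diploid pollen and hence triploid seeds: untreated jas-3 (n = 2), the DMSO controls, grown with the solvent alone (n = 3), and the suppressor line Aza1 in generations eM2 (n = 3) and eM3 (n = 4). Aza1 descends from a plant exposed to 5-Azacytidine, an inhibitor of DNA methyltransferases, during germination and early growth. The sample labels call these generations eM1 and eM2, while the published description has eM2 and eM3, the names kept below. One treated line gave all 7 Aza1 libraries, the eM3 libraries came from 4 different plants of it according to the published description, and the labels do not tie an eM3 library to an eM2 plant.

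The libraries held 40526464 to 43974069 counts on 27394 genes, and LINE/L1 elements took between 3.89% and 6.09% of the TE counts. JASON itself had 14 counts in both WT libraries and 80 to 225 in the others, but reads on either side of an inserted T-DNA still count toward the gene, so this does not check the labels. Markers of embryo, endosperm, seed coat and valve margin were detected, and the pollen genes VGD1 and VGDH1 were detected too. Some were near the floor. The seed coat gene TT12 had 1 to 21 counts. In CPM (counts scaled to a fixed total of gene counts per library), the endosperm gene RGE1 had 0.99 and 0.34 in WT. AGL62, another endosperm gene, had 0.52 and 0.34 in WT and 0.146 to 2.05 elsewhere. The 8 seed storage protein genes took 36.7% and 42.5% of gene counts in WT, 7.97% and 17.02% in jas-3, 10.7% to 22.6% in DMSO, 21.8% to 30.7% in Aza1 eM2 and 14.9% to 27.6% in Aza1 eM3. The endosperm gene PHE1 had 0 CPM in both WT libraries, 21.4 and 43.6 in jas-3, 12.02 to 47.4 in DMSO, 0.194 to 1.15 in Aza1 eM2 and 3.98 to 24.2 in Aza1 eM3. These tissue markers moved with the groups, and their part in the results below was not tested. In pooled siliques, fewer cells of a type and less RNA per cell cannot be told apart.

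Levels are given as CPM by gene totals. The tests also used trimmed mean of M-values (TMM) factors, which remove the shift of the typical gene. This choice matters against WT: on the log2 scale the TMM factors took 0.80 off the difference between jas-3 and WT and 0.71 off that between DMSO and WT, whereas between Aza1 eM2 and DMSO they added 0.27. An element or family was called at an absolute log2 fold-change of at least 2 and an adjusted p under 0.01, from the edgeR quasi-likelihood test with Benjamini-Hochberg adjustment over all genes and TEs tested, or over all TE families.

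Most members are fragments. The median length was 310.5 bases, 247 members were under 100 bases, and 89 reached at least 4000 bases, of which 27 were TA11, 22 ATLINE1_6 and 17 ATLINEIII. Of the 1366 members, 100 overlapped a gene, 351 lay within 500 bases of one and 915 lay at least 500 bases from any gene. Of 1119 members long enough to hold a window of 100 bases, 87.8% consisted of windows that occur once in the genome. No count fell on 596 members in any library, and 218 members reached at least 10 counts in some library.

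The starts of 6 long members are shown. Each member had most of its counts in 1 or 2 Aza1 libraries, and the families differ in their content of CG, the dinucleotide at which MET1 maintains methylation. These members are not the 6 with the highest counts. Each start is the first 150 bases of the annotated element in the direction of the longest open frame, read from the RefSeq TAIR10.1 genome. CG dinucleotides are in capitals. An annotated start need not be the 5′ end of a whole copy. AT5TE63020 directly follows another annotated ATLINE1_6 piece, AT5TE63015 (chr5:17441767-17441791), which had 25 and 67 counts in Aza1 eM2 replicates 2 and 3, so its start may be internal. AT3TE45385 (ATLINE1_6), chr3:10922628-10922777, minus strand, has 1 CG and AT5TE63020 (ATLINE1_6), chr5:17441792-17441941, plus strand, has 3. AT5TE37800 (TA11), chr5:10356171-10356320, and AT3TE37690 (TA11), chr3:9017041-9017190, both on the minus strand, have 4 and 2. AT5TE52400 (ATLINE1_2), chr5:14574599-14574748, plus strand, has 9 and AT1TE70805 (ATLINE1_1), chr1:21455841-21455990, minus strand, has 14.
AT3TE45385: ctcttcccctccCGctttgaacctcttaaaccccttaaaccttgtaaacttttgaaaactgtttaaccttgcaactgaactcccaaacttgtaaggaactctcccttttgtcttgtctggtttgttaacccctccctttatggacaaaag
AT5TE63020: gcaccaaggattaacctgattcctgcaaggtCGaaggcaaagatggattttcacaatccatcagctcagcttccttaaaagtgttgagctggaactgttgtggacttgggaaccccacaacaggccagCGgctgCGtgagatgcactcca
AT5TE37800: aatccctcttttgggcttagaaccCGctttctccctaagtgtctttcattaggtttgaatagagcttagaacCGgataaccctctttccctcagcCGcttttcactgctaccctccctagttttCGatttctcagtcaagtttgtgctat
AT3TE37690: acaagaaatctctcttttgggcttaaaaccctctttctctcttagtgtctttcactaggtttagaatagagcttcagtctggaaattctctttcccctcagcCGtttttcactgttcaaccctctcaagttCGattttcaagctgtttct
AT5TE52400: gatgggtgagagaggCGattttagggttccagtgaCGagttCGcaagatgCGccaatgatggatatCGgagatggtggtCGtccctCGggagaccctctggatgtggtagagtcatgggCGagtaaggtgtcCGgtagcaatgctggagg
AT1TE70805: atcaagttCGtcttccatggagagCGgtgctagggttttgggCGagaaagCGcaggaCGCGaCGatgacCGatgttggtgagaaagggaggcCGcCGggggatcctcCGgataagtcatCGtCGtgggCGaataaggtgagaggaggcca
The TA11 starts share a run of 14 bases, ctcttttgggctta, and the whole elements were 71.9% identical over 5862 aligned bases. Over all long members, the median number of CG sites per kilobase was 13.9 in TA11 and 18.003 in ATLINE1_6, against 34.6 in ATLINE1_2 and 38.6 in ATLINE1_1. The active ATLINE1_6 copies had diverged from each other: AT5TE63020 and AT3TE45385 were 68.6% identical over 1329 bases.

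The counts of the class rested on few members, most of them beside genes. The 5 members with the most counts held 48.3% of all LINE/L1 counts and the first 10 held 66.1%. Members that overlapped a gene took 36.2%, members within 500 bases of a gene took 45.1%, and the 915 distant members took 18.6%. The largest signal was on AT5TE55640 (ATLINE1_3A), 204 bases from RBCS1B, a gene for the small subunit of Rubisco. It had 1367 and 1574 counts in WT, 5097 and 3145 in jas-3, 1916 to 2755 in DMSO, 855 to 2059 in Aza1 eM2 and 757 to 2226 in Aza1 eM3. The 21-base ATLINEIII fragment next to it, AT5TE55645, had almost the same number in every library (1363 and 1570 in WT), so their counts are not separate measurements. RBCS1B had 16983 and 19052 counts in WT and 52116 and 33271 in jas-3, and a read from a gene and one from the TE beside it cannot be told apart here. Both elements were singled out after their values were seen.

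The 4 strongest members inside genes, with medians taken over the libraries, were AT1TE33200 (ATLINE1_5) in AT1G29355, AT1TE55865 (ATLINE1_4) in NPQ4, which protects photosystem II from excess light, AT3TE82735 (ATLINE1A) in AT3G54940, and AT4TE26490 (ATLINE1_3A) in STK, which sets ovule identity. AT1TE33200 had 940 to 2542 counts, while AT1G29355 had 1199 to 2861. For AT1TE55865 the range was 717 to 2338 counts, while NPQ4 had 7446 to 22128. AT4TE26490 stayed between 296 and 466 counts, while STK had 1893 to 3140. A read in such a place may count on both the gene and the element.

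Far from genes, the 6 members with the highest medians were detected in every library. AT2TE18800, a 133-base ATLINE1_6 fragment, had 185 and 168 counts in WT and 267 to 504 elsewhere. AT1TE12135 (ATLINE2) had 60 and 62 in WT and 174 to 377 elsewhere. AT5TE38700 (ATLINE1_5) had 67 and 24 in WT and 126 to 225 elsewhere. In these 3 the WT libraries were below every other library before TMM scaling. AT5TE31020, an ATLINE1_6 copy of 6259 bases, had 116 and 81 counts in WT, 508 and 486 in jas-3, 119 to 277 in DMSO, 130 to 245 in Aza1 eM2 and 108 to 292 in Aza1 eM3, so that untreated jas-3 stood above all other libraries. AT5TE04245 (TA11, 136 to 286 counts) and AT1TE10830 (ATLINE2, 53 to 204 counts) completed the set.

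**Figure D1:**
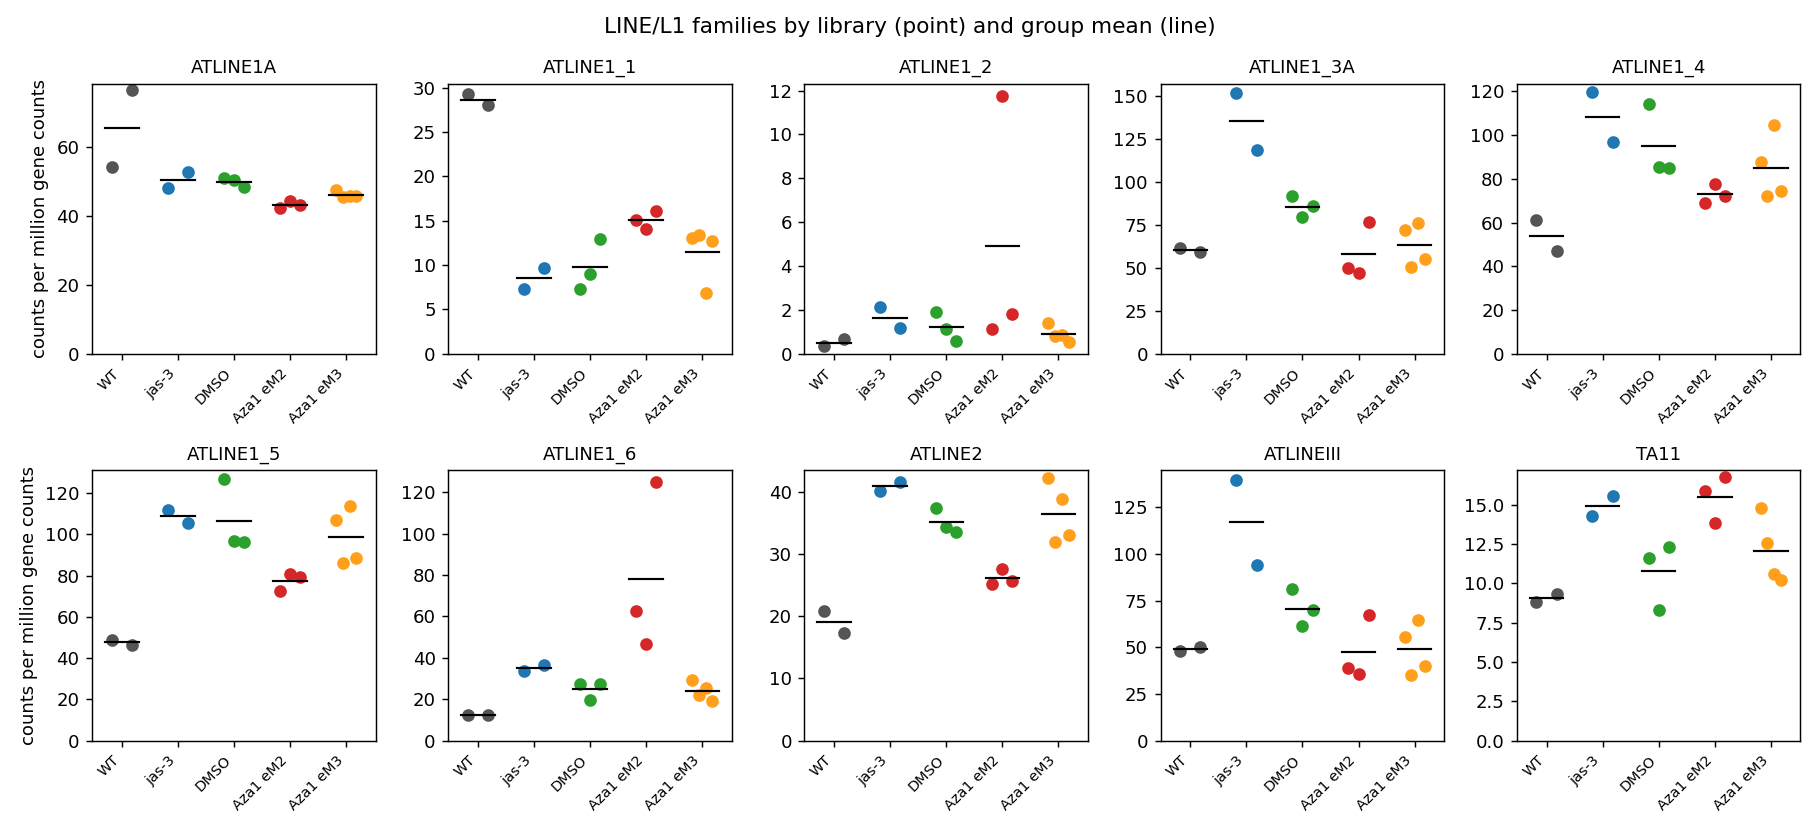
CPM (y axis, from 0, scaled by gene totals without TMM) of the 10 LINE/L1 families with more than 2 members, by group (x axis); points are libraries and lines group means. ATLINE1_6 was highest in the 3 Aza1 eM2 libraries (46.6 to 125.0), ATLINE1_2 was high in a single Aza1 eM2 library (11.7), and ATLINE1_1 was highest in WT (29.3 and 28.0).

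The first question was whether the jas-3 background, which brings triploid seeds, came with altered L1 RNA. As a sum over all members, the class had 346 ± 1.05 CPM in WT (SD, n = 2) and 621 ± 68.2 in jas-3 (n = 2), a log2 difference of 0.84 that shrank to 0.04 under TMM scaling. In the DMSO controls the sum was 490 ± 54.7 (n = 3), 0.49 above WT by gene totals but 0.21 below it under TMM, so the direction depends on the scaling. The exact two-sided permutation test gave p = 0.333 and p = 0.2, the smallest values that these group sizes allow.

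At the level of elements, 171 members passed the filter on low counts. Between jas-3 and WT 18 were upregulated and 2 downregulated. This is 11.7% of the members tested, against 9.88% of all genes and TEs (7.82% up and 2.06% down) and 15.8% of all TEs tested (12.9% up and 2.95% down). Between DMSO and WT 19 were upregulated and 5 downregulated, or 14%, against 11.5% of all genes and TEs (8.29% up and 3.18% down) and 19% of all TEs (14.2% up and 4.85% down). The shares lie between those backgrounds and show nothing particular to L1. The median log2 fold-change of the members was 0.20 for jas-3 and 0.08 for DMSO, beside 0.07 and 0.04 over all features and 0.21 and 0.12 over all TEs. Of the 20 called members between jas-3 and WT, 12 lay in or within 500 bases of a gene, and for 10 of these the gene was called in the same direction. Both comparisons use the same WT libraries. The counts depend on single libraries: without WT replicate 1 or 2 there were 8 calls between jas-3 and WT, and without jas-3 replicate 1 or 2 there were 10, while between DMSO and WT there were 7 without WT replicate 2, 12 without WT replicate 1 and 13 without DMSO replicate 1, but 18 without DMSO replicate 2 and 23 without DMSO replicate 3.

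AT1TE40640, a 473-base ATLINE2 fragment on chromosome 1 (12483087 to 12483559) and 2408 bases from the nearest gene, FAB1D, had 0 counts in both WT libraries. It had 192 and 111 counts in jas-3, 252, 154 and 99 in DMSO, 40, 64 and 56 in Aza1 eM2 and 150, 100, 162 and 112 in Aza1 eM3. Every library with the jas-3 allele was thus above WT, and the Aza1 eM2 libraries were the lowest of these. Against a floor of 3 counts per library it was at least 20.2-fold higher in jas-3 (adjusted p = 8.65e-06) and at least 17.9-fold higher in DMSO (adjusted p = 4.81e-06) than in WT, by edgeR.

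AT1TE44780, a 127-base ATLINE1A fragment inside UBC31 (AT1G36340), which encodes a ubiquitin-conjugating enzyme, showed the same order of groups. It had 0 and 0 counts in WT, 412 and 327 in jas-3, 537, 542 and 337 in DMSO, 55, 97 and 77 in Aza1 eM2 and 399, 158, 346 and 138 in Aza1 eM3. Its host had 2 and 2 counts in WT and 1681 to 2731 in jas-3 and DMSO, and rose by a log2 fold-change of 9.01 in jas-3 (adjusted p = 1.15e-06, edgeR). The element was at least 59.6-fold higher in jas-3 than in WT (adjusted p = 1.09e-05) and at least 61.2-fold higher in DMSO (adjusted p = 5.17e-06).

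AT1TE32460 (ATLINE1_3A), inside AT1G28630, had no count in WT, 47 and 58 in jas-3 and 42 to 45 in DMSO, at least 7.4-fold and 7.0-fold higher than WT. AT5TE55110 (ATLINEIII), 346 bases from AT5G38180, had no count in WT, 32 and 20 in jas-3 and 9 to 21 in DMSO, at least 3.6-fold and 1.7-fold higher, although only 37.1% of its windows are unique. AT4TE06460 (ATLINE1_3A), inside AT4G02830, rose from 20 and 5 counts in WT to 270 and 168 in jas-3 (log2 fold-change 3.31 ± 0.49 SE) and 94 to 204 in DMSO (2.80 ± 0.46 SE). The gene at each of these positions was also called upregulated in jas-3, with log2 fold-changes of 7.28 for AT1G28630, 3.57 for AT5G38180 and 2.94 for AT4G02830.

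AT3TE82735 (ATLINE1A), an 82-base piece of AT3G54940, moved the other way. It had 1515 and 2505 counts in WT, 477 and 696 in jas-3, 620, 785 and 793 in DMSO, 893 to 949 in Aza1 eM2 and 686 to 938 in Aza1 eM3, and WT did not overlap any other group. It fell by 2.63 ± 0.37 (SE) on the log2 scale in jas-3 and fell by 2.25 ± 0.32 in DMSO, while its host fell by 2.52 in jas-3 and fell by 2.22 in DMSO. The storage protein share also separated WT from jas-3 and DMSO, as given above, and with that share as a covariate 3 members were called in jas-3 and 3 in DMSO. These were AT1TE40640, AT1TE44780 and AT1TE32460 in both comparisons. AT4TE06460 kept log2 fold-changes of 2.78 and 2.36 but was no longer called (adjusted p = 0.0712 and 0.0476, edgeR), nor was AT5TE55110 (adjusted p = 0.0386 and 0.0259). For AT3TE82735 the log2 fold-change was then -0.92 in jas-3 (adjusted p = 0.174, edgeR) and -0.83 in DMSO (adjusted p = 0.0922).

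Of the 10 families tested, ATLINE1_1 alone was called against WT, beside 7.85% of all 293 TE families in either comparison. It fell by 2.53 ± 0.42 (SE) on the log2 scale in jas-3 (adjusted p = 0.000928, edgeR) and fell by 2.25 ± 0.36 in DMSO (adjusted p = 0.000577). This rested on AT4TE11410, a 218-base fragment inside MSRB6, a methionine sulfoxide reductase gene, with 1123 and 1073 counts in WT, 140 and 246 in jas-3 and 119 to 446 in DMSO. The host fell with it, from 6289 and 6453 counts in WT to 716 and 1585 in jas-3. The call in jas-3 was lost without jas-3 replicate 1, and with distant members alone no family was called against WT. With the storage protein share as a covariate, the log2 fold-change of AT4TE11410 itself went from -3.32 to 0.28 in jas-3 (adjusted p = 0.867, edgeR) and from -2.76 to 0.03 in DMSO (adjusted p = 0.98).

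**Figure D2:**
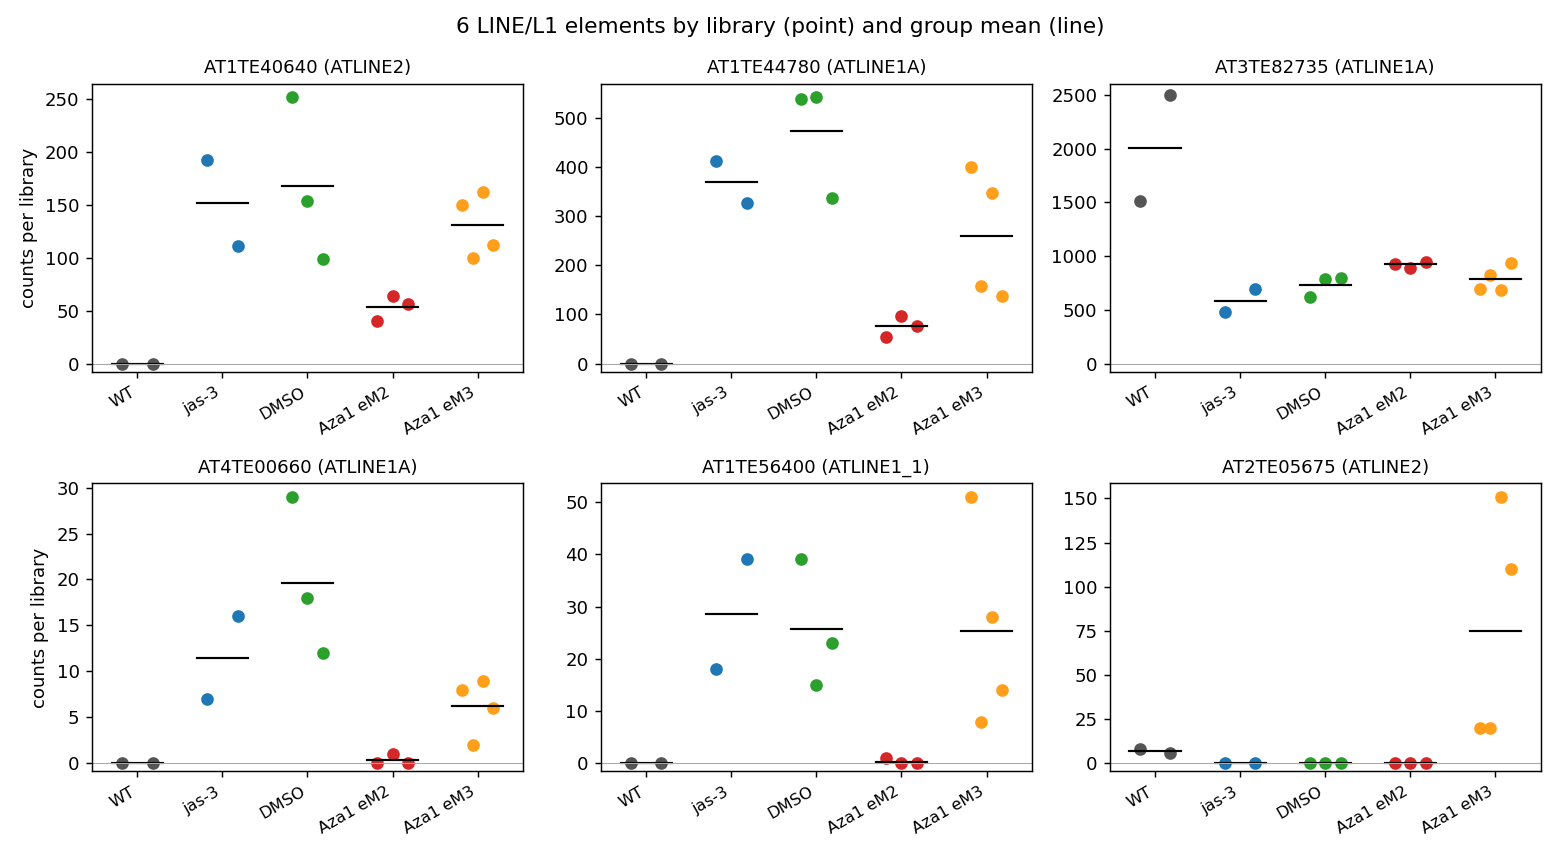
Counts per library (y axis, linear, unscaled) of 6 LINE/L1 elements by group (x axis); points are libraries and lines group means. AT1TE40640 and AT1TE44780 had no count in WT and were lower in Aza1 eM2 than in DMSO, AT3TE82735 was highest in WT, AT4TE00660 and AT1TE56400 had at most 1 count in each Aza1 eM2 library, and AT2TE05675 was present in WT and Aza1 eM3 only.

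Next, the solvent controls were set beside untreated jas-3. No member and no family was called between DMSO and jas-3 by edgeR or by DESeq2, while 9 members had an unadjusted p under 0.05, and 0.19% of all genes and TEs and 0.0904% of all TEs were called. The members with the smallest p were AT3TE43410 (ATLINE1A) inside UMAMIT46, an amino acid transporter gene, with 66 and 82 counts in jas-3 against 22 to 32 in DMSO, the ATLINE1_6 copy AT5TE31020 described above, and AT2TE70830 (ATLINE2) inside ChlAKR, with 139 and 106 against 37 to 61. Their adjusted p-values from edgeR were 0.0951, 0.156 and 0.244. The 2 host genes were lower in DMSO as well. UMAMIT46 had a log2 fold-change of -1.13, beside -1.40 for AT3TE43410, and ChlAKR had -1.14, beside -1.18 for AT2TE70830. The summed level of the class was lower in DMSO by 0.34 on the log2 scale (exact permutation p = 0.2, the smallest possible).

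The main question was what happened to L1 RNA in Aza1, the line with a history of 5-Azacytidine. Over the whole class the sum was not higher by gene totals: Aza1 eM2 had 439 ± 73.8 CPM (SD, n = 3), against 490 ± 54.7 in DMSO, a log2 difference of -0.17 that turned to 0.10 under TMM scaling (exact permutation p = 0.3 for gene totals). The members at least 500 bases from any gene summed to 90.2, 107 and 179 CPM in the Aza1 eM2 libraries and to 85.6, 68.5 and 79.3 in DMSO, so that the groups did not overlap. Their log2 difference was 0.63 by gene totals and 0.90 under TMM scaling (exact permutation p = 0.1, the smallest possible with 3 against 3). In Aza1 eM3 they summed to 67.0 to 96.5, next to the 68.5 to 85.6 of DMSO, with a log2 difference to DMSO of -0.01 by gene totals and 0.09 under TMM. All distant members went from a mean of 77.8 CPM in DMSO to 125 in Aza1 eM2, and those of ATLINE1_6 from 23.1 to 70.1. Among the other families, the distant members of TA11 rose by a log2 fold-change of 1.06 (adjusted p = 0.00875, edgeR over TE families). Those of ATLINE1_2 rose by 2.58 (adjusted p = 0.0266), with 0.853, 11.4 and 1.68 CPM in the Aza1 eM2 libraries. The distant members of ATLINE1_3A fell by 1.77 (adjusted p = 0.00891). The remaining families had adjusted p-values of at least 0.0796, and no family was called on distant members.

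Among single members tested between Aza1 eM2 and DMSO, none was called upregulated and 4 were called downregulated, 2.34% against 2.1% of all genes and TEs (0.346% up and 1.75% down) and 5.69% of all TEs (2.17% up and 3.53% down). An unadjusted p under 0.05 was reached by 29 members that were higher and 22 that were lower. AT1TE44780, described above inside UBC31, fell by 2.34 ± 0.35 (SE) on the log2 scale (adjusted p = 0.00248, edgeR), and UBC31 fell by 2.35. AT4TE00660 (ATLINE1A), inside AT4G00300, had 29, 18 and 12 counts in DMSO and 0, 1 and 0 in Aza1 eM2, and fell by 5.16 ± 0.93 (adjusted p = 0.00642), while its host had a log2 fold-change of -1.38. AT1TE56400 (ATLINE1_1), 881 bases from ATUBC2-1, had 39, 15 and 23 counts in DMSO and 1, 0 and 0 in Aza1 eM2 (adjusted p = 0.00977). AT5TE64300 (ATLINE1_3A), 530 bases from ERF9, had 32, 16 and 15 counts in DMSO and 1, 1 and 2 in Aza1 eM2 (adjusted p = 0.00565), although only 36.6% of its windows are unique. DMSO and Aza1 eM2 did not overlap in any of these 4. All 4 had at most 2 counts in each WT library, but the calls rest on few libraries. No member was called without Aza1 eM2 replicate 3, DMSO replicate 1 or DMSO replicate 2. Without Aza1 eM2 replicate 1 none of the 4 was called, and AT5TE63010 and AT5TE63020 were called upregulated. Without Aza1 eM2 replicate 2 only AT1TE44780 of the 4 was called, while AT2TE22315, AT5TE37800 and the ATLINE2 element AT3TE66875 were called upregulated. The absence of upregulated members also depends on the tool: DESeq2 called 3 upregulated (AT2TE22315, AT5TE37800 and AT5TE52410) and 7 downregulated, among them all 4 above, and without a filter on low counts edgeR called 6 upregulated and the same 4 downregulated. With the storage protein share as a covariate none of the 4 was called, although their log2 fold-changes stayed at -1.84 for AT1TE44780, -2.70 for AT5TE64300, -4.74 for AT4TE00660 and -5.02 for AT1TE56400, and AT1TE70805 was called upregulated. The members named here for these alternatives were not chosen by the naming rule for this comparison.

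The family ATLINE1_6 was higher in Aza1 eM2. Its level was 27.5, 19.5 and 27.5 CPM in DMSO and 62.6, 46.6 and 125.0 in Aza1 eM2, with every Aza1 eM2 library above every other library of the study, and it was 29.4, 22.1, 25.4 and 19.4 in Aza1 eM3. WT had 12.3 and 12.3 and jas-3 33.6 and 36.6. The log2 fold-change to DMSO was 1.96 ± 0.34 (SE, adjusted p = 0.000934, edgeR over 293 TE families), so the family passed the threshold on p but not that of 2 on the log2 fold-change. Between Aza1 eM3 and Aza1 eM2 the log2 fold-change was -1.91 ± 0.30 (SE, adjusted p = 0.000734), and between Aza1 eM3 and DMSO the log2 fold-change was 0.05. Among all TE families 10.9% were called between Aza1 eM2 and DMSO and 10.2% between Aza1 eM3 and Aza1 eM2. Without the third Aza1 eM2 library the log2 fold-change was 1.38 (adjusted p = 0.000772), and without the second it was 2.27. Without the first or second Aza1 eM2 library, or without DMSO replicate 3 (2.06, 2.27 and 2.08), the family was called.

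Much of the difference came from a few copies, which differed between libraries. The 6 copies AT3TE45385, AT5TE63020, AT3TE43550, AT2TE22315, AT5TE36620 and AT5TE63010 took 66.8%, 25.5% and 83.8% of the family's counts in the 3 Aza1 eM2 libraries and 4.18% to 16.9% in the other 11. Without them the family stood at 25.3 ± 8.20 CPM in Aza1 eM2 (SD, n = 3) and 22.0 ± 3.80 in DMSO (n = 3), or 26.4 ± 5.54 and 19.5 ± 3.50 under TMM. Replicate 2 was still at 34.7 CPM without them, above the 17.8 to 25.2 of DMSO, whereas replicates 1 and 3 were at 20.8 and 20.3. These 6 were put together after their values were seen, so this is a description. All 100-base windows of these 6 copies are unique in the genome.

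AT3TE45385, 5074 bases long, had counts of 310, 2 and 1420 in Aza1 eM2, 98, 18 and 19 in DMSO, 0 and 8 in jas-3, 0 and 0 in WT and at most 8 in Aza1 eM3. AT5TE63020, 4136 bases long, had 0, 349 and 1334 in Aza1 eM2 and at most 4 in every other library. AT3TE43550, 5782 bases long, had 30, 28 and 866 in Aza1 eM2 and 32 to 113 elsewhere. Thus the third Aza1 eM2 library carried all 3, the first and second carried 1 each, and no Aza1 eM3 library carried any above the level of the controls. Their adjusted p-values between Aza1 eM2 and DMSO, from the edgeR test over all features, were 0.147, 0.0393 and 0.221, so none was called.

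**Figure D3:**
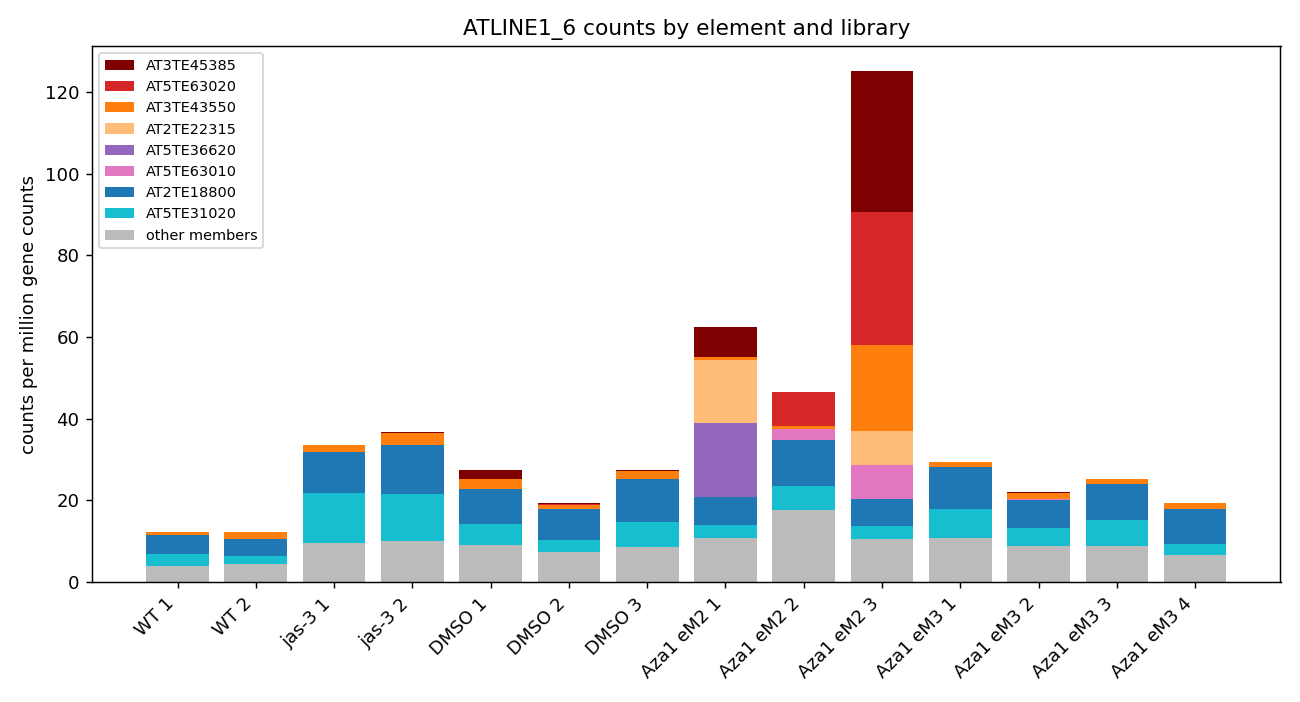
Stacked CPM (y axis, from 0) of the ATLINE1_6 family in each of the 14 libraries (x axis), with 8 members in colour and the others in grey. The blue members AT2TE18800 and AT5TE31020 were present everywhere, while AT3TE45385, AT5TE63020, AT3TE43550, AT2TE22315, AT5TE36620 and AT5TE63010 made 83.8% of the bar of Aza1 eM2 replicate 3 and 25.5% of that of replicate 2.

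ATLINE1_2 showed the same unevenness more sharply. Its level was 1.12, 11.7 and 1.82 CPM in Aza1 eM2 and 0.595 to 1.91 in DMSO, a log2 fold-change of 2.20 ± 0.73 (SE, adjusted p = 0.0381, edgeR) that rests on a single library. DESeq2 called this family in Aza1 eM2 against DMSO and in Aza1 eM3 against Aza1 eM2. The log2 fold-change of TA11 was 0.81 ± 0.21 (adjusted p = 0.0112) and it was not called. The other families differed from DMSO by less than 1 on the log2 scale.

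Members were also counted by a rule on raw counts that does not average a group, at least 10 counts in any of the 7 Aza1 libraries and fewer than 3 in each of the 7 other libraries. By this rule 46 LINE/L1 elements were on in Aza1 alone, 3.37% of the class, and the reverse rule found 1 element (0.0732%). Over all TEs the rule found 1.5% in the Aza1 libraries and 0.257% in reverse. The share was 4.02% in LTR/Gypsy (0.263% in reverse), 7.12% in DNA/En-Spm (0.85%), 2.13% in LTR/Copia (0.674%) and 0.201% in RC/Helitron (0.185%). These shares are descriptions, with no test between classes. Leaving out any library in turn gave 39 to 48 elements, but the number depends on the limits: 25 elements remained when no count was allowed in the other libraries, and 83 were found with at least 6 counts and under 6 in the others.

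Of the 46, 36 reached 10 counts in Aza1 eM2 alone, 8 in Aza1 eM3 alone and 2 in both generations. The 2 in both, AT3TE53490 and AT3TE53495, lie end to end on chromosome 3, so they are not separate places. The Aza1 eM2 libraries held 22, 11 and 24 of the 46, and the Aza1 eM3 libraries 10, 2, 1 and 0. Over all TEs the same libraries held 257, 188 and 253 and then 56, 45, 14 and 14, so a lower number in Aza1 eM3 is not particular to L1. Replicates 1 and 3 of Aza1 eM2 shared 15 elements, 68.2% of the former and 62.5% of the latter. Replicate 2 shared 1 element with replicate 1 and 4 with replicate 3. Only AT5TE52410 (ATLINE1_1) reached 10 counts in all 3, with 14, 30 and 14, and 26 of the 46 did so in a single library. The second Aza1 eM2 library also had the lowest storage protein share of its group (21.8% against 30.7% and 30.1%), and the part of this in the difference was not tested.

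The 46 elements formed 39 places when neighbours within 5000 bases were joined. They included 15 ATLINE1_6, 8 TA11, 6 ATLINE1_1, 5 ATLINEIII and 4 ATLINE2 elements, which is 11.6% of ATLINE1_6 and 9.84% of ATLINE1_1 but 0.692% of ATLINE1A, the family with the most members. By length, they were 12 of the 89 members of at least 4000 bases (13.5%) and 34 of the 1277 shorter ones (2.66%). A longer element collects more reads, and no test was made between the lengths. None overlapped a gene, and 41 lay at least 500 bases from any gene (89.1% against 67.0% of all members). In windows of 200 kb around them, genes covered a median of 26.1% of the bases, against 37.3% around all members. Among members of at least 4000 bases the order was the other way, with 35.3% around the 12 that were on and 25.0% around all 89. Chromosome 5 held 18 of them and chromosome 3 held 14, while chromosomes 1, 2 and 4 held 3, 7 and 4.

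The highest count in a single library was that of AT5TE36620, an ATLINE1_6 copy of 5839 bases on chromosome 5 (10050547 to 10056385), with 746 counts in Aza1 eM2 replicate 1, 1 count in an Aza1 eM3 library and 0 in the other 12. The gene AT5G28052, 230 bases away, had 76 counts in that same library and at most 1 in any other. AT2TE22315 (ATLINE1_6, 2473 bases) had 628, 2 and 347 counts in Aza1 eM2, 0, 0, 2 and 8 in Aza1 eM3 and at most 2 elsewhere. AT5TE63010, an annotated piece next to AT5TE63020, had 0, 114 and 342 counts in Aza1 eM2, the same libraries in which AT5TE63020 was on. Each of these copies thus had RNA in 1 or 2 libraries of the eM2 generation and at most 8 counts in any eM3 library.

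AT5TE37800 (TA11), whose start is printed above, had 98, 4 and 214 counts in Aza1 eM2 and at most 2 in any other library. Its relative AT3TE37690, also TA11 and singled out after its values were seen, was on in the next generation instead, with 98 counts in Aza1 eM3 replicate 1, 4 in Aza1 eM2 replicate 1 and 0 in all others. AT5TE52400 (ATLINE1_2), with its CG-rich start, had 130 counts in Aza1 eM2 replicate 2 and at most 3 elsewhere, and AT1TE70805 (ATLINE1_1) had 110 in that library, 10 in replicate 3 and at most 2 elsewhere. Among the 6 copies whose starts are shown, CG-poor ones were on in each of the 3 Aza1 eM2 libraries, and both CG-rich ones had their highest count in replicate 2. In replicate 2 the CG-poor one was AT5TE63020, whose printed start may be internal and which has 79 CG sites over its 4136 bases. Other ATLINE1_1 elements on in Aza1 alone varied. AT5TE52410 and AT4TE50995 were highest in replicate 2, with 30 and 20 counts. AT3TE67295 had 22, 0 and 0 counts in Aza1 eM2 and AT3TE63865 had 38, 2 and 24. AT5TE62545 had 83 in Aza1 eM3 replicate 1 and 0 in Aza1 eM2 replicate 2. The 6 copies were chosen for their counts, and nothing about CG content was tested.

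**Figure D4:**
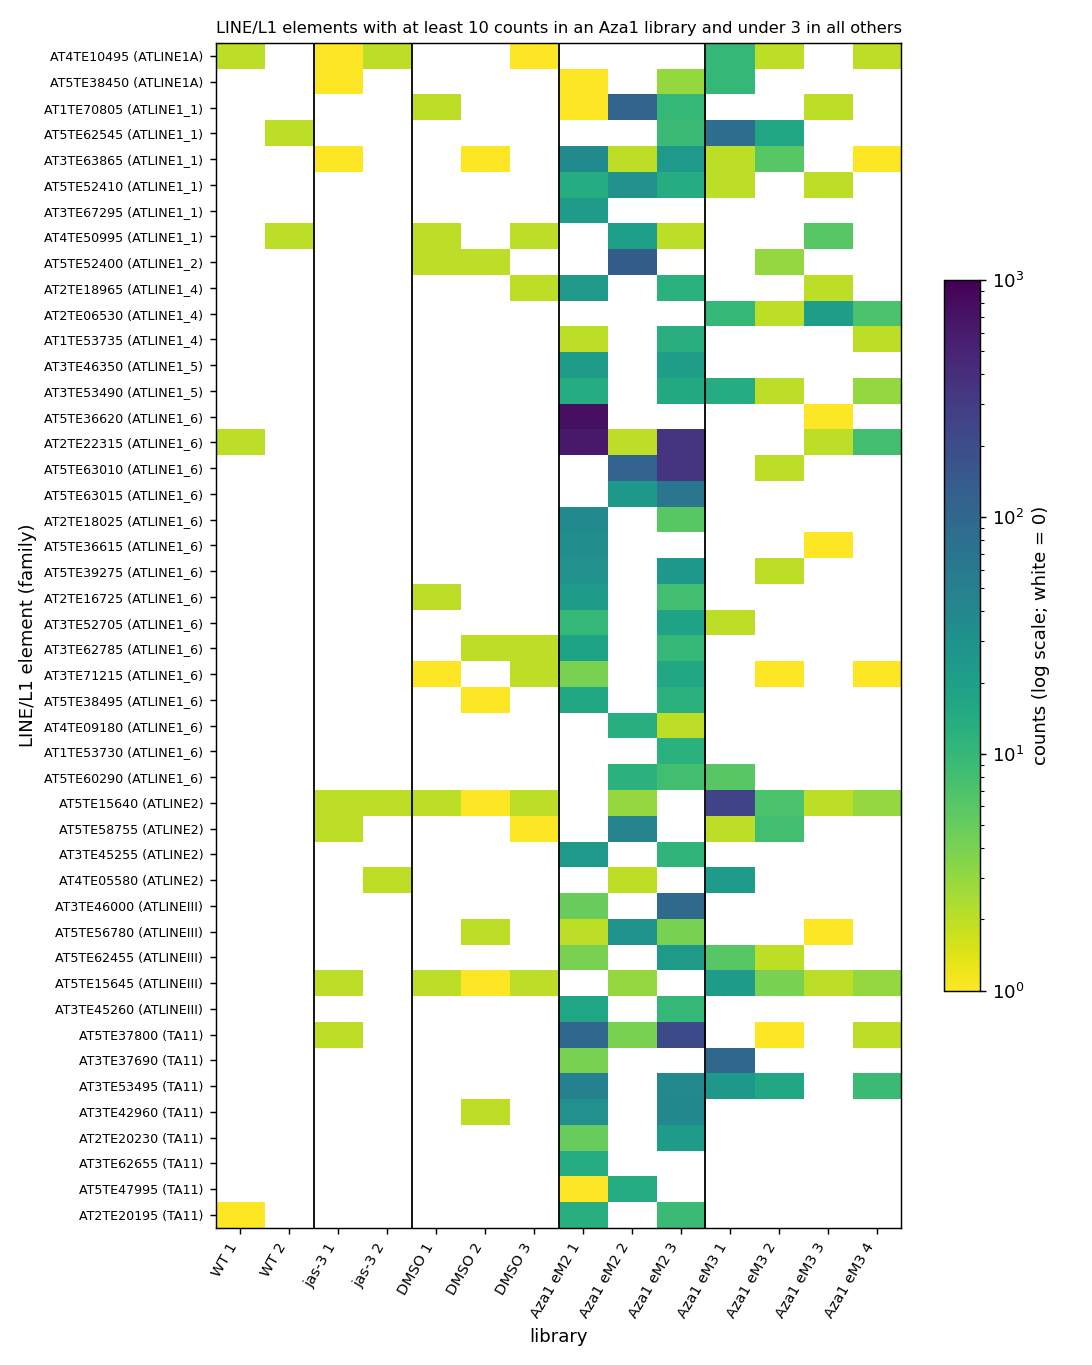
Counts (colour, log scale, white for 0) of the 46 LINE/L1 elements with at least 10 counts in any Aza1 library and fewer than 3 in every other library; rows are elements sorted by family and columns the 14 libraries, with lines between groups. Aza1 eM2 replicates 1 and 3 shared 15 of these elements, replicate 2 shared 1 and 4 with them, and the Aza1 eM3 columns held 10, 2, 1 and 0 elements of at least 10 counts.

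By eM3 most of this RNA was no longer seen in the counts given above. An absence of edgeR calls between Aza1 eM3 and DMSO cannot show such a loss, because no member was called upregulated in Aza1 eM2 either. The direct comparison of the generations is given above for ATLINE1_6 and below for members. No member was called between Aza1 eM3 and DMSO by edgeR, where 9 had an unadjusted p under 0.05, and DESeq2 called 1; no gene or TE at all was called by edgeR (0%). The smallest p belonged to AT2TE05675 (ATLINE2, 871 bases, 4724 bases from AT2G03980), the member that DESeq2 called. It had 20, 20, 151 and 110 counts in Aza1 eM3 and 0 in all DMSO, jas-3 and Aza1 eM2 libraries, while WT had 8 and 6. It was at least 6.5-fold higher in Aza1 eM3 than in DMSO against a floor of 3 counts per library, but its adjusted p was 0.389 in edgeR and ranged from 1.48e-05 to 0.896 over the alternatives. AT2TE86100 (TA11), 122 bases from UBC6, had 71, 62 and 39 counts in DMSO and 34, 21, 34 and 19 in Aza1 eM3 (adjusted p = 0.664), and AT4TE00660 had 8, 2, 9 and 6 in Aza1 eM3 (adjusted p = 0.668).

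AT5TE15640 (ATLINE2, 1445 bases), 1376 bases from the flowering-time gene FY, was the strongest element that came on in eM3. It had 248 counts in Aza1 eM3 replicate 1, 7, 2 and 3 in the other Aza1 eM3 libraries and at most 3 in every other library. The same library also carried AT5TE62545 (ATLINE1_1), which had 83 counts there, 16 in replicate 2 and 9 in Aza1 eM2 replicate 3. The TA11 fragment AT3TE53495 was the widest in time, with 48, 0 and 39 counts in Aza1 eM2 and 25, 16, 0 and 9 in Aza1 eM3. Both were singled out after their values were seen.

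Between the generations themselves, edgeR called no member, with 45 at an unadjusted p under 0.05, and DESeq2 called 3, all higher in Aza1 eM3. Leaving out Aza1 eM2 replicate 2 gave 4 calls and leaving out replicate 1 gave 2, all lower in Aza1 eM3, whereas leaving out Aza1 eM3 replicate 2 gave 2 that were higher. In the same comparison 1.37% of all genes and TEs and 3.68% of all TEs were called. Those with the smallest p narrowly missed the threshold. AT2TE37330 (ATLINE1_6, 253 bases) had counts of 1, 2 and 0 in Aza1 eM2 and of 25, 9, 18 and 14 in Aza1 eM3 (adjusted p = 0.0101). AT1TE56400 had 1, 0 and 0 against 51, 8, 28 and 14 (adjusted p = 0.0106), beside the 39, 15 and 23 of DMSO. In AT5TE49650, an ATLINE1_2 copy of 4480 bases, the order was reversed, with 16, 68 and 46 counts in Aza1 eM2 and 0 in all Aza1 eM3, DMSO and jas-3 libraries (adjusted p = 0.0175). It was detected in all 3 Aza1 eM2 libraries, at least 5.7-fold higher than in Aza1 eM3 against the floor of 3 counts, and WT had 4 and 0 counts, so it is not among the 46 elements. The log2 difference of the summed class level, Aza1 eM3 minus Aza1 eM2, was -0.04 by gene totals (exact permutation p = 0.8) and -0.20 under TMM. For the members at least 500 bases from any gene the log2 difference was -0.64 by gene totals (exact permutation p = 0.114) and -0.80 under TMM.

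A list of 23 genes that act in TE silencing, among them MET1, DDM1, the CHG methyltransferase CMT3 and the RNA-directed methyltransferase DRM2, was set beside these results. Against WT, 6 of the 23 were upregulated in jas-3 and 6 in DMSO and none was downregulated, where 7.82% and 8.29% of all genes and TEs were called upregulated. The 6 in jas-3 were CMT3 (log2 fold-change 3.21), MET1 (2.65), DDM1 (2.98), VIM1 (3.10), KYP (2.37) and the histone gene HTA6 (3.87). At an adjusted p under 0.01 with no limit on fold (edgeR), 9 were higher and 2 lower in jas-3. In DMSO 9 were higher and 3 lower. The lower ones in jas-3 were AGO4 (-1.10) and SUVH6 (-0.63). The median over the list was 0.14 in jas-3, against 0.07 over all features. Between Aza1 eM2 and DMSO none was called by the same rule, the median was 0.11, and DRM2 was higher by 0.49 (adjusted p = 0.00972, edgeR). MET1 had 663 to 1224 raw counts in Aza1 eM2 and 1012 to 1574 in DMSO. With scaling its log2 fold-change was -0.08 ± 0.21 (SE, adjusted p = 0.884, edgeR). None was called between Aza1 eM3 and either group. The part of these genes in the L1 levels was not tested.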

How the data were processed

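Libraries were grouped by their sample labels. Per the submitters' notes, the authors aligned reads to TAIR10 with STAR and deposited, per library, raw counts of reads on every gene, TE and intergenic interval; the treatment of reads with several alignments, of strand and of overlapping features is not given in the sources used here. Of counts from 1 to 20 on members, 55.8% were even. The published description calls the replicates of all groups biological, and the labels do so for WT, jas-3 and DMSO; p-values measure the spread between these libraries. Intervals and floors cover counting error only.

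Counts were fitted in R 4.3.3 with edgeR 4.0.16 (filterByExpr by group, library size the total gene count, TMM factors from genes, glmQLFit and glmQLFTest, all 14 libraries, 25731 features, 171 members). The common biological coefficient of variation was 0.263. The procedure was tested on simulated data. DESeq2 1.42.0 was an alternative, as were other normalizations, filters, fold thresholds, features, samples, covariates and a replicate block. For a group at 0, the lower bound of a fold divides the smallest scaled count on the other side by 3 counts in whichever library at 0 makes these worth most (scaling by gene total and TMM). Sums over members used an exact permutation test (scipy 1.17.1). SE is the log2 fold-change divided by the square root of the F statistic. Of 26907 genes compared, all overlapped the gene of the same name in TAIR10.1. Open frames, CG sites and unique windows of 100 bases were read from TAIR10.1, whose nuclear chromosomes have the lengths of the deposited coordinates; identities came from blastn 2.17.0. Python 3.11.15, numpy 2.4.6, pandas 2.3.3 and matplotlib 3.10.9 were used.

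Elements were named by rule: in each comparison the called members, up to the 6 with the smallest adjusted p, or the 3 with the smallest p where fewer than 3 were called; the 6 distant and 4 gene-overlapping members with the highest median level; and the 6 with most counts among those on in Aza1 alone. All other elements named were chosen after their values were seen, as were the alternatives to the rule on raw counts and the halved counts. The members, the lists and the tests were chosen with earlier results of these data known.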

Additional observations from a re-analysis of the deposited data

Results flagged for a closer look

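Among the 4 Aza1 eM3 libraries, 8 of 54 levels examined held a library far from the others by Dixon's criterion at 95% confidence (the gap to the nearest library divided by the range). Chance gives about 1 in 20 for continuous values, but this rate does not apply here: 6 of the 8 had a ratio of 1 only because the other 3 libraries were at 0, where any count gives that ratio, and many of the elements were chosen for being on in few libraries. The family ATLINE1_1 (gap ratio 0.8997) had 6.82 CPM in replicate 3 and 12.8 to 13.4 in the others. For AT5TE15640 (0.9788) replicate 1 stood out with 248 counts, and for AT3TE37690 (ratio 1) the same library had 98 counts against 0. The remaining cases, all with a ratio of 1, were AT5TE36620, AT5TE63010, AT5TE52400, AT3TE45385 and AT1TE70805, where a single library had 1 to 8 counts and the others none.

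The annotation also holds 81 TEs of the superfamily LINE?, outside the LINE/L1 class. Of these, 4 were on in Aza1 libraries alone by the rule used above and none in reverse. AT1TE54530 had 9, 0 and 21 counts in Aza1 eM2 and AT1TE54545 had 10, 0 and 5, with none in any other library, whereas AT2TE42460 and AT3TE49110 reached at most 12 and 14 counts in Aza1 eM3 and 2 in the controls. All 81 belong to the family TSCL, which had 89.8, 213 and 167 CPM in Aza1 eM2, 36.2 to 39.9 in DMSO and 29.9 to 45.1 in Aza1 eM3. It rose by a log2 fold-change of 2.29 ± 0.24 (SE) between Aza1 eM2 and DMSO (adjusted p = 3.05e-05, edgeR), was higher in 3 of 3 libraries, and fell by 2.32 ± 0.22 between Aza1 eM3 and Aza1 eM2 (adjusted p = 1.41e-05).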

How the results depend on the processing

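Over the alternatives that gave a value, the log2 fold-change of called members changed sign once in 260 values for jas-3 against WT, once in 337 for DMSO against WT (AT4TE11410 with the storage share in both) and in 0 of 58 for Aza1 eM2 against DMSO. Sums changed sign as given below. Of the alternative values of the counts and sums, 168 stayed within 1.5 times the count or within the replicate SD and 62 moved further. Among the values of named elements that were called, 165 kept the call and 41 lost it, 10 of these with the storage protein share as a covariate; of those not called, 120 stayed so and 12 gained a call.

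Calls between jas-3 and WT (20) became 2 when at least 10 counts were asked of every library, 3 with these groups alone, 13 with a replicate block and 3 with the storage share. Calls between DMSO and WT (24) became 4 with at least 10 counts and 3 with the storage share. Calls between Aza1 eM2 and DMSO (0 up, 4 down) became 10 with DESeq2 (3 up, 7 down), 8 with TEs alone (3 up, 5 down), 0 with at least 10 counts, 1 with counts divided by 2 (down, tried after seeing the data), 10 without a filter (6 up, 4 down), 2 with the block (1 up, 1 down) and 1 with the storage share (up, none of the 4). With these groups alone 2 were up and 3 down. For Aza1 eM3 against DMSO (0) DESeq2 gave 1. For Aza1 eM3 against Aza1 eM2 (0) DESeq2 gave 3 (up), its size factors 1 (up), TEs alone 4 (2 up, 2 down), no filter 9 (3 up, 6 down), the block 1 (down) and the storage share 1 (down). Stricter filters leave fewer members to test; the other causes were not tested.

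Family calls became 2 at a fold of 2 and 0 with distant members for jas-3 and for DMSO against WT (1 each), 1 with DESeq2 and 1 at a fold of 2 for Aza1 eM2 against DMSO (0), and 1 with DESeq2, 1 at a fold of 2 and 1 with distant members for Aza1 eM3 against Aza1 eM2 (0). The log2 difference of the sums was 0.0403 under TMM, 1.103 for distant members and 0.30 without storage genes for jas-3 against WT, -0.21, 0.80 and 0.0462 for DMSO against WT, 0.10 under TMM, 0.63 for distant members and 0.0187 without storage genes for Aza1 eM2 against DMSO, -0.0111 for distant members for Aza1 eM3 against DMSO and -0.64 for them between the generations. The 46 elements on in Aza1 alone became 25 when no count was allowed elsewhere, 83 with limits of 6 and 6, and 10 in Aza1 eM3 alone.

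Leaving out each library in turn gave 8 to 10 element calls for jas-3 against WT, 7 to 23 for DMSO against WT, 0 to 4 for Aza1 eM2 against DMSO and for Aza1 eM3 against Aza1 eM2, and 0 to 0 for the other comparisons. Family calls ranged from 0 to 1, 1 to 1, 0 to 1 and 0 to 2 in the same order. The sums ranged from 0.73 to 0.95, 0.41 to 0.56, -0.30 to -0.08 and -0.11 to 0.10, from -0.46 to -0.23 for DMSO against jas-3 and from -0.27 to -0.12 for Aza1 eM3 against DMSO. The elements on in Aza1 alone ranged from 39 to 48.

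Replicate numbers did not pair the libraries: deviations of same-numbered libraries correlated at -0.26 to 0.24 for Aza1 eM3 against DMSO, and every pair exceeded 0.1 only for DMSO against jas-3, with 2 pairs. The block gave 13 and 16 calls against WT. Elements with few counts are limited by depth, and an absent call there is not evidence of equal levels.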
